A study of Mus musculus with 3 samples.

Results

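Oxidative phosphorylation is carried out by subunits that 2 genomes encode, and both were read here in the same 3 bulk RNA sequencing libraries of mouse incisor mesenchyme. All listed genes of the mitochondrial chromosome were taken, together with protein-coding nuclear genes named as subunits of complexes I to V (Nduf, Sdh, Uqcr, Cox4 to Cox8 and Atp5 symbols). This gave 97 genes of 19381 listed. Of these, 15 lie on the mitochondrial chromosome, 13 of them mRNAs and 2 ribosomal RNAs, and 82 are nuclear. The nuclear genes comprise 38 of complex I, 4 of complex II, 8 of complex III, 15 of complex IV and 17 of complex V. The symbols also drew in Cox5b-ps and Ndufb1-ps, which carry pseudogene names but are typed as protein coding in the deposited table, and Cox7a2l, a factor of supercomplex assembly. Ndufa4 is counted with complex I by its name, although its protein is now assigned to complex IV. Mitochondrial transfer RNAs were not among the listed genes.

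All libraries came from 1 group, called DKO, with the genotype Gli1-CreER;Arid1afl/fl;Arid1bfl/fl. The mice were 1 month old, received tamoxifen by intraperitoneal injection at 1.5 mg per 10 g of body weight, and the proximal incisor was taken 4 days later. Cre driven by Gli1 acts in Gli1-expressing cells, so the bulk values also include cells in which the floxed alleles were not recombined. Control mice were not analysed here, so no value below is an effect of the genotype. No label ties a library to its own animal, so an SD here, and any test, covers variation among these libraries and may be of technical origin alone.

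The respiratory chain passes electrons from NADH (complex I) and succinate (complex II) through complex III to oxygen at complex IV, and the proton gradient it builds drives ATP synthase, complex V. Mitochondrial DNA encodes the hydrophobic core of complexes I, III, IV and V and the ribosomal RNAs that serve to translate them, while every subunit of complex II and all supernumerary subunits are nuclear. The mitochondrial mRNAs are cut from long transcripts of either strand, so their levels after processing depend on the stability of each mRNA, and nuclear subunits are transcribed one by one.

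The deposited totals were 986401, 958773 and 966163 normalized counts in replicates 1, 2 and 3, and the 75th percentile was 44.7 in each library. All 8 markers of dental mesenchyme reached a mean of 10, led by Col1a1 and Col1a2, with a summed level of 21629.5, 13491.8 and 27262.7. All 7 markers of dental epithelium also reached it, and their summed level was 759, 1226 and 941. No skeletal muscle marker did: 8 of 10 were listed, and their summed level was 1.72, 6.68 and 3.96. Replicate 1 stood apart in 9 interferon-response genes, whose summed level was 1132 there, against 218 in replicate 2 and 223 in replicate 3. One listed ribosomal RNA gene, CT010467.1, took 7.27%, 4.98% and 4.66% of the total.

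The mitochondrial chromosome has a long near-identical copy in the nuclear genome, and its sequence bears on how far reads can be assigned. On mouse chromosome 1, minus strand, 7 listed pseudogenes lie within chr1:24611535-24616197 (GRCm38/mm10), a stretch of 4663 bases. They follow one another in the order of the mitochondrial genes between positions 6390 and 11042 of the mitochondrial chromosome. Windows of 60 bases from GENCODE M21 transcripts are printed 5′ to 3′ for 3 genes to show how alike gene and copy are: mt-Atp6 (chrM:8236-8295, plus strand) and Gm10925 (chr1:24614283-24614342, minus strand), mt-Nd3 (chrM:9459-9518) and Gm28438 (chr1:24613060-24613119), and mt-Co1 (chrM:6390-6449) and Gm29216 (chr1:24616129-24616188). Capitals mark the base that differs.
mt-Atp6: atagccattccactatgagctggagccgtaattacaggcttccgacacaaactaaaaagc
Gm10925: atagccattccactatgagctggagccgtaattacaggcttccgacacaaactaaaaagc
mt-Nd3: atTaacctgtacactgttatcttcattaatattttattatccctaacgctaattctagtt
Gm28438: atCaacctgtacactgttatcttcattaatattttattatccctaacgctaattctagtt
mt-Co1: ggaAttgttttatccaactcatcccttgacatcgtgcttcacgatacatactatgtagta
Gm29216: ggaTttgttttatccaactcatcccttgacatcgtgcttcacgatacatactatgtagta
The mt-Atp6 window is the same in both genomes, and so are all 678 aligned bases. The aligned stretches differ by T3C in mt-Nd3, over 345 bases, and by A1066T in mt-Co1, over 483 bases, with positions counted from 1 at the first base of the mitochondrial gene.

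Transcripts of the mitochondrial chromosome took 5.11%, 4.14% and 4.16% of the summed signal in replicates 1, 2 and 3 (4.47% ± 0.558, SD, n = 3). The 82 nuclear genes together took 0.492%, 0.542% and 0.514% (0.516% ± 0.0251, SD, n = 3). The 13 mitochondrial mRNAs summed to 10.1, 7.40 and 7.89 times the nuclear genes (8.48 ± 1.46, SD, n = 3). The larger of the 2 sums was thus the one with far fewer genes, in every library.

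Levels of different genes were compared per kb of exon, the length of all annotated exons of a gene. The median mitochondrial mRNA stood at 4038, 3074 and 3052 normalized counts per kb, and the median of the 77 nuclear subunits with a mean of at least 10 stood at 28.5, 30.0 and 28.2. On the log2(value + 1) scale the difference, mitochondrial minus nuclear, was 7.10, 6.63 and 6.71 (6.81 ± 0.25, SD, n = 3). The lowest mitochondrial mRNA, mt-Nd6, lay above the highest nuclear subunit, Atp5a1, at 593 ± 186 against 150.6 ± 7.33 normalized counts per kb. Per kb of principal transcript the highest nuclear subunit was Atp5b, at a mean of 289.5. The size of the gap depended on the length used: per kb of each gene's principal transcript the medians differed by 5.93 ± 0.26 (SD, n = 3), or 60.9-fold in place of 112-fold. The exons of all annotated isoforms enter the length of a nuclear gene, while a mitochondrial gene has 1 exon and 1 length.

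**Figure D1:**
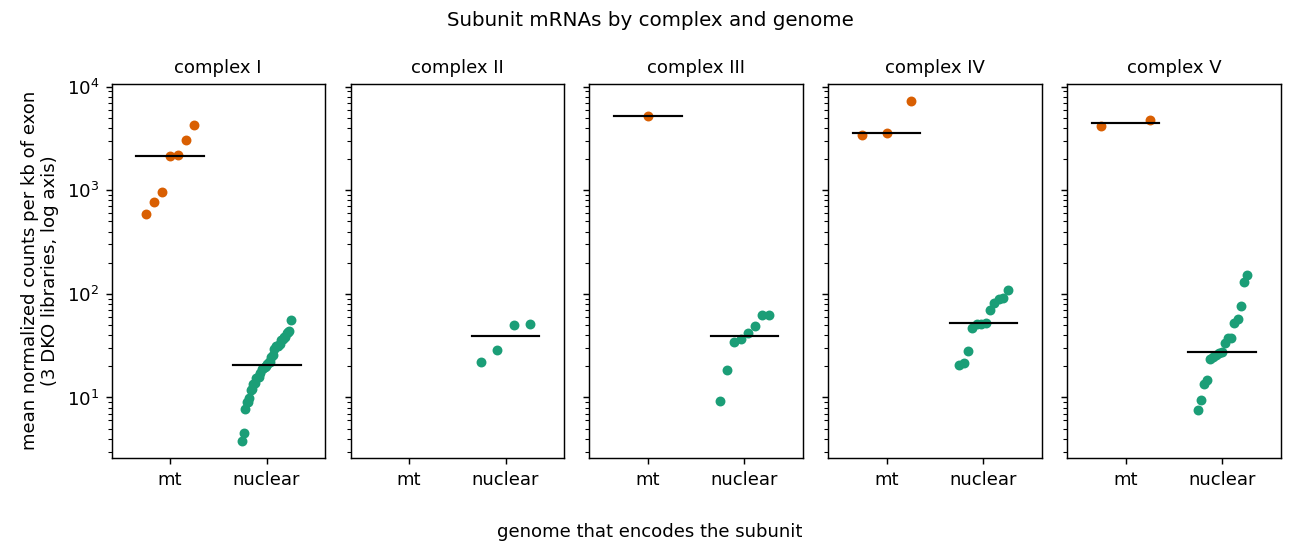
Mean level of each subunit mRNA over the 3 DKO libraries, in normalized counts per kb of exon on a log axis, for mitochondrially encoded and nuclear encoded subunits with a mean of at least 10, 1 panel a complex; each point is a gene and each bar a median. No mitochondrial point falls into the range of the nuclear points, and complex II has no mitochondrial subunit.

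The gap was found in each complex that both genomes encode. In complex I the 7 mitochondrial subunits had a median of 2538, 1864 and 1967 normalized counts per kb and the 36 nuclear ones 20.3, 21.9 and 20.0, a log2 difference of 6.60 ± 0.28 (SD, n = 3). In complex III, mt-Cytb stood 6.9997 ± 0.22 above the 8 nuclear subunits. The difference was 6.01 ± 0.18 in complex IV (3 mitochondrial and 12 nuclear subunits) and 7.23 ± 0.27 in complex V (2 and 17). The nuclear median was 53.8, 57.7 and 51.5 normalized counts per kb in complex IV and 27.1, 30.7 and 28.2 in complex V. This order turned with the length used: per kb of principal transcript the nuclear median was 85.5, 96.7 and 88.8 in complex IV and 101.8, 115.3 and 101.03 in complex V. The mitochondrial minus nuclear difference was then 5.81 ± 0.30 in complex I, 6.58 ± 0.24 in complex III, 5.29 ± 0.23 in complex IV and 5.38 ± 0.26 in complex V.

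Among the mitochondrial mRNAs, without added copies, levels per kb spread over 12.4-fold. The highest was mt-Co1, the catalytic subunit of cytochrome c oxidase, with 12939.7, 10203 and 10865 normalized counts in replicates 1, 2 and 3, or 7337 ± 924 per kb (SD, n = 3). Next came mt-Cytb, the haem-bearing core of complex III, with 6909, 5523 and 5279.6 normalized counts (5161 ± 769 per kb). The per-kb ranges of the pair did not overlap. The ATP synthase genes mt-Atp6 and mt-Atp8, which share 43 bases and sit on 1 mRNA, reached 4753 ± 657 and 4199 ± 797 per kb. Their ranges over the libraries overlapped each other and that of mt-Nd4, at 4253 ± 591 per kb, although mt-Atp6 was the highest of the 3 within each library. These ranks leave out the near-identical nuclear copies. With the copy added, mt-Atp6 (681 bases) had 7488, 5828 and 6087 normalized counts in replicates 1, 2 and 3. On the same sum mt-Co1 (1545 bases) had 13234, 10537 and 11011. Per kb, mt-Atp6 would then lie above mt-Co1, and mt-Co3 and mt-Co2 above mt-Cytb, in every library. In replicate 2, mt-Co3 would also lie above mt-Co1. The top ranks thus depend on how reads were assigned between gene and copy.

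The other core subunits of complex IV, mt-Co3 and mt-Co2, stood at 3575 ± 422 and 3397 ± 579 normalized counts per kb. The complex I genes spread most. Between mt-Nd4 and the low end lay mt-Nd1 at 3062 ± 547, mt-Nd2 at 2203 ± 339 and mt-Nd5 at 2123 ± 363 per kb. Without added copies, the lowest 3 were mt-Nd4l at 963 ± 151, mt-Nd3 at 773 ± 70.6 and mt-Nd6 at 593 ± 186. Of these, mt-Nd4l and mt-Nd3 have near-identical nuclear copies with more signal than the gene. With the copy added, mt-Nd4l had 743, 597 and 545 normalized counts and mt-Nd3 722, 671 and 601. Per kb of the gene, both sums would lie above mt-Nd5 in replicate 2 and below it in replicates 1 and 3. Whether these 2 genes lie below mt-Nd5 thus depends on how reads were assigned between gene and copy. The short mt-Nd4l is known to share an mRNA with mt-Nd4, with which it overlaps by 7 bases, and had 337, 253 and 268 normalized counts where mt-Nd4 had 6764, 5186 and 5631. The position of a read along the shared mRNA is not held by a table of counts per gene. The gap between this pair thus cannot be told apart from the way reads over short genes were counted or assigned between gene and copy.

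The gene mt-Nd6 is the only mRNA encoded on the minus strand and overlaps the end of mt-Nd5 by 14 bases. It had 402, 313 and 209 normalized counts in replicates 1, 2 and 3, a coefficient of variation of 31.4%, the highest of the 13. The strand setting of the counting is not given in the sources used here, so reads from mt-Nd6 and from the RNA of the opposite strand cannot be told apart.

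Per kb, the mean levels of the ribosomal RNAs lay below those of every mitochondrial mRNA, although mt-Rnr2 and mt-Nd6 overlapped and mt-Rnr2 was the higher of the pair in replicate 3. The large one, mt-Rnr2, had 879, 912 and 749.6 normalized counts (535 ± 54.3 per kb) and the small one, mt-Rnr1, 341, 319.8 and 254 (319 ± 47.5 per kb). In cells these are known as the most abundant mitochondrial RNAs. Whether the libraries were made by poly(A) selection or by removal of ribosomal RNA is not given in the sources used here, and its part in these levels was not tested.

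**Figure D2:**
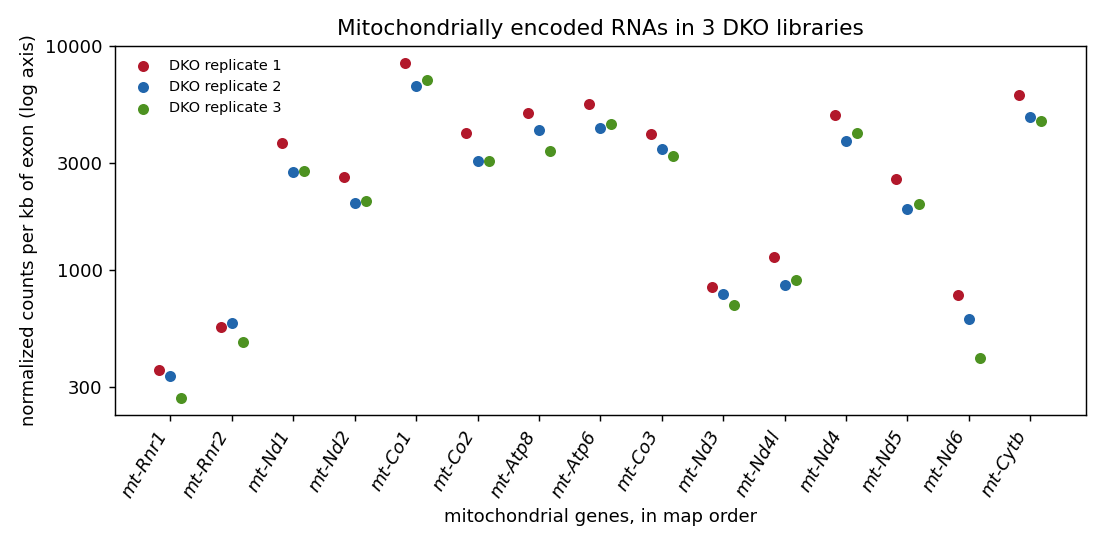
Level of the 15 mitochondrial genes in each DKO library, in normalized counts per kb of exon on a log axis, with genes in the order of the mitochondrial map; each point is 1 library. Replicate 1 is the highest point for all 13 mRNAs, and mt-Rnr1, mt-Rnr2 and mt-Nd6 have the lowest means.

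The mitochondrial mRNAs moved together between libraries. All 13 were highest in replicate 1, as were 31.2% of the 10388 genes whose mean was at least 10. Of the 13, 7 were lowest in replicate 2 (27.8% of all genes) and 6 in replicate 3 (34.2% of all genes). The median difference of replicate 1 from the mean of the others was 0.37 on the log2 scale, with a range over genes of 0.19 (mt-Nd3) to 0.65 (mt-Nd6), beside a median of -0.01 for all genes. In 12 of 13 the value in replicate 1 was at least 1.2 times the mean of replicates 2 and 3, a size that 7.82% of all genes reached. The exception was mt-Nd3, at 1.14-fold. The ribosomal RNAs did not share this order: mt-Rnr1 was highest in replicate 1 and mt-Rnr2 in replicate 2, and both were lowest in replicate 3.

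Under each of 3 other scalings of the libraries, all 13 mRNAs again had their highest value in replicate 1. These scalings moved replicate 1 by -0.0235 to 0.0131 and replicate 2 by -0.00804 to 0.0175 on the log2 scale. Such shifts are too small to change this order, so the scalings could not have given another outcome. Replicate 1 was also the library with the interferon-response genes at 1132 against 218 and 223 and with the larger share of ribosomal RNA. Its summed macrophage markers were lower, at 719 against 980 and 1024. The part of these differences in the mitochondrial values was not tested, and with 1 library on one side and 2 on the other of the same group no test applies.

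The nuclear subunits did not follow the mitochondrial mRNAs. Of the 77 with a mean of at least 10, 6 had their highest value in replicate 1 (31.2% of all genes did), 53 in replicate 2 (34.2% of all genes) and 18 in replicate 3 (34.6% of all genes). The 6 were Ndufb10, Ndufs4, Ndufs5, Ndufs6, Uqcr10 and Cox4i2. Replicate 1 was the lowest library for 43 of them (38.1% of all genes) and replicate 2 for 2, Ndufs6 and Cox4i2 (27.8% of all genes). The shifts were small: the median difference from the mean of the other libraries was -0.05 in replicate 1, 0.10 in replicate 2 and -0.02 in replicate 3 on the log2 scale. Replicate 1 was thus high for mitochondrial mRNAs while the nuclear median there lay slightly below the other libraries.

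Under the other scalings 48 to 57 of the nuclear subunits were highest in replicate 2, beside 30.8% to 40.9% of all genes. Without replicate 2, 34 of the 77 were higher in replicate 1 than in replicate 3, so the low count in replicate 1 rests on the comparison with replicate 2. By principal transcript, these were 25 of 52 subunits under 1000 bases and 9 of 25 longer ones. Among all protein-coding genes with a mean of at least 10, it was 350 of 609 and 4465 of 9537. Replicate 2 was also the library in which 6 of 7 dental epithelium markers were highest (34.2% of all genes). The summed dental mesenchyme markers were lowest there, and all 6 endothelial markers were highest in replicate 3 (34.6% of all genes). Of the 77 subunits, 52 have a principal transcript under 1000 bases, as do 609 of 10146 protein-coding genes with a mean of at least 10. In those 52 the median of replicate 2 minus replicate 3 was 0.08 and that of replicate 1 minus replicate 2 was -0.12, beside 0.06 and -0.04 in the 609 short genes, which include the 52. The parts of cell content and of transcript length in the nuclear order were not tested. In bulk tissue, fewer cells of a type and less RNA per cell cannot be told apart.

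**Figure D3:**
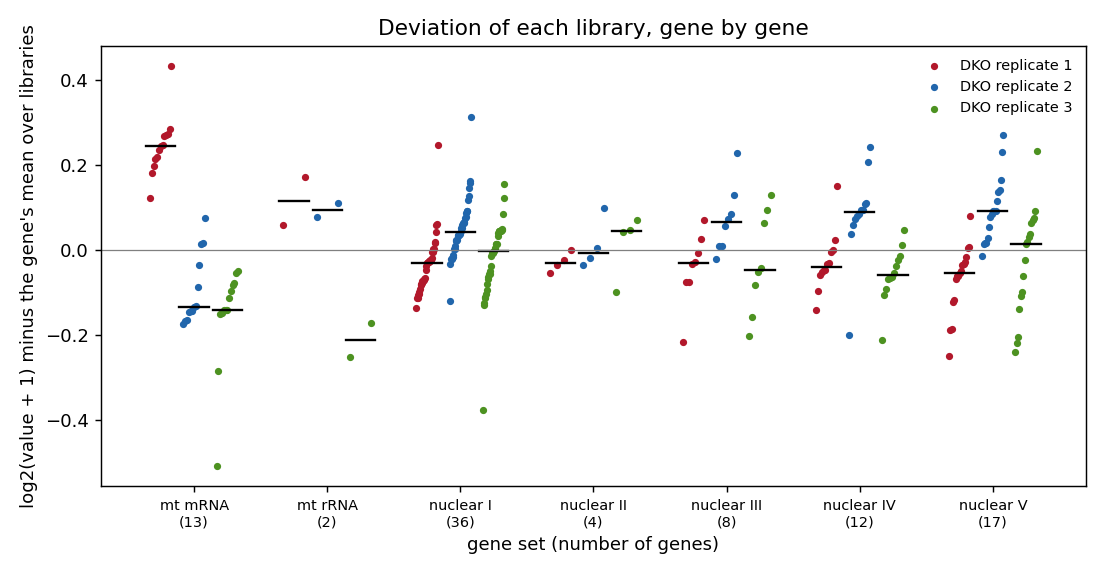
Deviation of each DKO library from the gene's mean over the libraries, in log2(value + 1), for mitochondrial mRNAs, mitochondrial ribosomal RNAs and the nuclear subunits of each complex with a mean of at least 10; each point is a gene in 1 library and each bar a median. For the 13 mitochondrial mRNAs replicate 1 lies above the others, while in nuclear complexes I, III, IV and V replicate 2 has the highest median.

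The coefficient of variation over the libraries was under 10% in 1 of 13 mitochondrial mRNAs and in 59 of 77 nuclear subunits (69.1% of all genes), with medians of 15.4% and 6.14%, beside 7.20% for all genes. The nuclear value was thus near that of all genes. Only Ndufs5, an accessory subunit of complex I, was at least 1.2 times higher in replicate 1 than in the others, and 4 of 77 were at least 1.2 times lower, as were 8.89% of all genes. These 4 were Atp5g1 at 0.764 times the other libraries, Uqcrq at 0.788, Atp5g2 at 0.819 and Atp5j2 at 0.821. At a mean of at least 10, 5 of the 82 nuclear genes were left out: Cox6b2 at 9.96, Ndufb4 at 9.27, Ndufa4l2 at 1.95, Cox5b-ps at 0.557 and Cox7a1 at 0.281 normalized counts. The lowest gene inside that limit was Ndufa11 at 12.8.

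The ranks that follow are per kb of all annotated exons. Where principal transcript lengths gave another lowest gene or other genes among the 3 highest, this is said. Within complex I, Ndufc2 at 56.3 ± 3.81, Ndufb11 at 44.0 ± 1.93 and Ndufa4 at 43.1 ± 2.57 normalized counts per kb were the highest, and the first 2 are accessory subunits of the membrane arm. The lowest were Ndufb2 at 4.50 ± 0.458 and Ndufb7 at 3.81 ± 0.122 per kb, whose annotated exons are far longer than their principal transcripts. Per kb of principal transcript Ndufa4 was highest at 131.6, then Ndufb8 at 72.5 and Ndufa6 at 64.9, ahead of Ndufc2 at 62.1. Ndufv3 was lowest at 15.5, with Ndufb2 at 55.7. The widest range between libraries was in Ndufb1-ps, with 25.9, 31.02 and 18.8 normalized counts in replicates 1, 2 and 3. Next was Ndufs5, with 15.8, 11.999 and 11.9. Ndufb1-ps was highest in replicate 2 and lowest in replicate 3, while Ndufs5 was high in replicate 1 only.

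The 4 subunits of complex II, succinate dehydrogenase, all reached a mean of 10. Sdha, the flavoprotein that oxidises succinate, had 206.9, 206.9 and 222.7 normalized counts (51.4 ± 2.21 per kb). The membrane anchors Sdhd and Sdhc stood at 49.9 ± 3.47 and 28.5 ± 0.734 per kb, and the iron-sulfur subunit Sdhb at 22.1 ± 0.787 per kb. With principal lengths Sdhc, at 29.2, was the lowest and Sdhb stood at 43.4. No member of the complex had a coefficient of variation above 6.94%.

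In complex III the small subunits Uqcrh at 62.7 ± 6.31, Uqcrb at 62.1 ± 9.59 and Uqcr10 at 49.2 ± 2.70 normalized counts per kb were highest. The core protein Uqcrc1 at 18.5 ± 1.14 and the small subunit Uqcrq at 9.30 ± 1.23 per kb were lowest. With principal lengths the lowest was Uqcrfs1, the Rieske iron-sulfur protein, at 36.4, and Uqcrq stood at 42.1. Uqcrb had 52.9, 63.4 and 46.8 normalized counts and was highest in replicate 2, whereas Uqcrq had 14.4, 18.02 and 18.6 and was lowest in replicate 1.

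In complex IV the highest levels per kb were those of Cox8a at 107.9 ± 6.51, Cox7a2l at 91.5 ± 5.97 and Cox4i1 at 90.2 ± 3.47. The lowest above the limit were Cox5a at 21.7 ± 2.88 and Cox6c at 20.4 ± 0.548. With principal lengths Cox4i1 at 187.7, Cox6c at 144.5 and Cox7a2l at 125.7 were the highest, ahead of Cox8a at 121.4. Cox5a then stood at 70.5, and Cox5b was the lowest above the limit at 51.4. Cox7b had 61.7, 74.9 and 54.4 normalized counts and was highest in replicate 2, as were 11 of the 12 nuclear subunits of this complex (34.2% of all genes).

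In complex V, subunits alpha and beta of the catalytic head were highest with either length. Atp5a1, subunit alpha, had 452, 467 and 497 normalized counts (150.6 ± 7.33 per kb). Atp5b, the catalytic subunit beta, had 534, 561 and 569 (130.9 ± 4.31 per kb), and Atp5c1, the central stalk subunit gamma, stood at 75.8 ± 3.80 per kb. The order of alpha and beta turned with the length used, at 191.04 and 289.5 per kb of principal transcript. The lowest were Atp5l, subunit g of the membrane part, at 9.35 ± 1.54 and Atp5g1 at 7.53 ± 1.28 per kb. With principal lengths Atp5h at 172.1, Atp5g3 at 161.0 and Atp5o at 160.55 stood above Atp5c1 at 124.0. Atp5l then stood at 110.8 and Atp5g1 at 62.1, and Atp5j2 was lowest at 51.3. Atp5mpl, a small proteolipid of the synthase, had 29.3, 37.3 and 26.6 normalized counts.

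The membrane ring of ATP synthase is built from subunit c, which 3 genes encode as the same mature protein. Atp5g3 had 111, 117 and 117 normalized counts, or 52.7 ± 1.57 per kb. Atp5g2 had 39.4, 48.8 and 47.3, or 26.9 ± 3.03 per kb, and Atp5g1 30.7, 37.0 and 43.2. Without added copies, Atp5g3 was thus the highest of the 3 in every library, per kb and as deposited. For Atp5g2 the order of libraries and the rank per kb are uncertain, because a listed pseudogene, Gm10175, is identical to it over 645 bases. With Gm10175 added, Atp5g2 had 84.7, 92.4 and 83.9 normalized counts, still below Atp5g3. Per kb of exon (1675 and 2181 bases) Atp5g2 would then lie above Atp5g3 in replicate 2. With principal lengths (441 and 714 bases) it would do so in all 3 libraries.

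For several complex IV subunits a second gene is known with a narrower range of tissues, such as muscle, testis or lung. Of 7 such pairs, 4 had both genes listed. In each of the 4, the isoform of narrower range was lower than its broad partner in 3 of 3 libraries. A two-sided exact permutation test, flipping the sign of each of the 3 library differences, gave p = 0.25 in each pair, also after Benjamini-Hochberg adjustment over the 4 pairs, and this is the smallest p that the design allows.

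Cox4i2, known from lung and from vascular pericytes, had 44.7, 34.8 and 41.5 normalized counts, against 135.2, 145.7 and 138.4 for Cox4i1. Per kb the log2 difference was only -0.81 ± 0.24 (SD, n = 3), and -1.75 with principal transcript lengths. Of the 4 narrow isoforms, Cox4i2 was thus the nearest to its partner in level. Ndufa4l2, the hypoxia-responsive relative of Ndufa4, had 2.10, 1.48 and 2.26 normalized counts, a log2 difference of -4.00 ± 0.28 per kb, and -5.43 with principal lengths. Markers of pericytes and smooth muscle were present: 9 of 9 reached a mean of 10, with a summed level of 957, 948 and 1075, led by Rgs5 at 515, 477 and 570.5.

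Cox7a1, the heart and skeletal muscle isoform, had 0.0291, 0.302 and 0.512 normalized counts, the first being the smallest value listed in replicate 1. Its difference from Cox7a2 was -5.03 ± 0.46 per kb (SD, n = 3), and -5.39 with principal lengths. This low level stood beside skeletal muscle markers of which the highest mean was 1.44, for Acta1. Cox6b2, the testis isoform, had 11.9, 10.2 and 7.83 normalized counts, against 55.9, 63.0 and 56.0 for Cox6b1, a difference of -3.08 ± 0.28 per kb, and -2.11 with principal lengths.

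**Figure D4:**
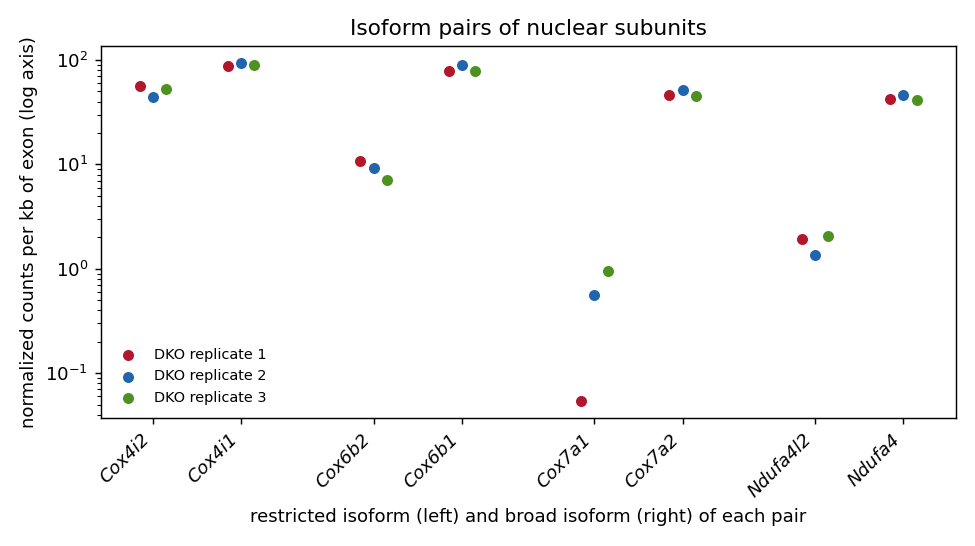
Levels of the 4 pairs of narrow and broad isoforms in each DKO library, in normalized counts per kb of exon on a log axis, with the narrow isoform left of its partner; each point is 1 library. Cox4i2 comes nearest to its partner and Cox7a1 lies farthest below on this scale.

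The promoters of Cox6b2 and Cox6b1 are printed because this pair of isoforms lies on 1 chromosome and differs in level by about 3 on the log2 scale. Each runs from 250 bases before to 50 after the RefSeq start on GRCm38.p6, both on the minus strand, at chr7:4753045-4753344 for Cox6b2 and chr7:30626065-30626364 for Cox6b1. Capitals mark a match to the ETS core described below.
Cox6b2: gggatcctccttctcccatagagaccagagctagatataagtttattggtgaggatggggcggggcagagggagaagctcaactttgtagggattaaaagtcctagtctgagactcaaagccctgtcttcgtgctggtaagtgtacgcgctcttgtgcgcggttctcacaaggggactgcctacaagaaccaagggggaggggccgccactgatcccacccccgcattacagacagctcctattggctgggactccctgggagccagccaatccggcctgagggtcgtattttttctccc
Cox6b1: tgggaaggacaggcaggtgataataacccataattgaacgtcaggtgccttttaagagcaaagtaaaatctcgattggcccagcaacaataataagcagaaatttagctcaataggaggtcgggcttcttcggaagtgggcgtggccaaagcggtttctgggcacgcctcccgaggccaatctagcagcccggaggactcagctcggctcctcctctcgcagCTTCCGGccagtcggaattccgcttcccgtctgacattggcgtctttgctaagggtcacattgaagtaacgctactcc
Cox6b1 holds 1 match to the ETS core and Cox6b2 none. In another isoform pair, Cox7a1 and Cox7a2, neither promoter holds one. Whether the match bears on the difference in level was not tested.

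The nuclear subunits are known as targets of GABPA (NRF2), an ETS factor, and of NRF1, and many have YY1 sites near their start. Promoters cut to the same 300 bases were at hand for 66 of the 82 nuclear genes and searched on both strands for CCGGAAG (ETS core), GCATGCGC (NRF1) and AAGATGGC (YY1). Matches of different motifs may overlap at their ends. The ETS core was in 17 of 66 (25.8%), beside 21.002% of 8123 other genes with a mean of at least 10 and 9.93% of 27025 genes with a promoter. NRF1 letters were in 10 (15.2%, beside 6.29% and 3.05%) and YY1 letters in 10 (15.2%, beside 5.49% and 3.19%). At least 1 of the 3 was in 31 of 66 (47.0%), beside 29.6% of the other genes above that limit. The gene of highest mean with the NRF1 letters was Uqcrc1 (chr9:108936398-108936697, plus strand), and with the YY1 letters Atp5pb (chr3:105959214-105959513, minus strand), which encodes the peripheral stalk subunit b. Their promoters are printed with the matches in capitals.
Uqcrc1: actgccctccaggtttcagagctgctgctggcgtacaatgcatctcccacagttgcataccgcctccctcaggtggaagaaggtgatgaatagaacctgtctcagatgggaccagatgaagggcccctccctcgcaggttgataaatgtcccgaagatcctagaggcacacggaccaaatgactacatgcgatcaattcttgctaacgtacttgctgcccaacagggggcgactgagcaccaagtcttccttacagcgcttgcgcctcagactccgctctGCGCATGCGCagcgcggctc
Atp5pb: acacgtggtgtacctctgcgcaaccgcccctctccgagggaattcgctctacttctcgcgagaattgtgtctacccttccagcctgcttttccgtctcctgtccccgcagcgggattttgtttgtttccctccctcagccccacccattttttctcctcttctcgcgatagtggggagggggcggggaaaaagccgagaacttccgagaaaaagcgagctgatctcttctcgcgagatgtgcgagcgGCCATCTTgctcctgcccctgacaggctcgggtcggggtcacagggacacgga
The Uqcrc1 capitals hold 2 overlapping NRF1 matches, 1 on each strand, and the Atp5pb capitals 1 YY1 match on the minus strand of the printed sequence. A match describes these letters only and is not a measured site.

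The near-identical copies drew a large signal of their own. In all, 10 listed pseudogenes aligned at 90% or more to 8 mitochondrial genes, and 7 of them, the run on chromosome 1, reached a mean of 10. The 10 summed to 10892, 8921 and 8583 normalized counts, or 1.104%, 0.930% and 0.888% of each library. For mt-Atp6, with 3748, 2915 and 3048 normalized counts, Gm10925 had 3740.1, 2913 and 3039. For mt-Co3, with 3166, 2723 and 2519, Gm28437 had 3166, 2722 and 2518. The values of gene and copy were the same to within 1% for these pairs in every library.

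For mt-Co2, with 2781, 2103 and 2087 normalized counts, Gm28661 had 2786, 2175 and 2091. In other pairs the copy was the higher one: mt-Nd3 was at 0.679 times Gm28438 in each of the 3 libraries, and mt-Nd4l at 0.831, 0.735 and 0.967 times Gm10222. In the remaining pairs the copy was far lower. The gene was 43.9, 30.5 and 74.5 times as high as its copy for mt-Co1 and Gm29216, and 101, 168 and 37.1 times for mt-Nd4 and Gm28439, although the last pair is identical over 876 bases. Pairs with no mismatch thus differed widely in the ratio of gene to copy. How reads that match several places were treated is not given in the sources used here. A read counted for both and reads split between them thus cannot be told apart. Each level of these 7 genes, and its rank, is uncertain to that degree. With the copies added, transcripts of mitochondrial sequence took 5.44% of the signal in place of 4.47%.

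**Figure D5:**
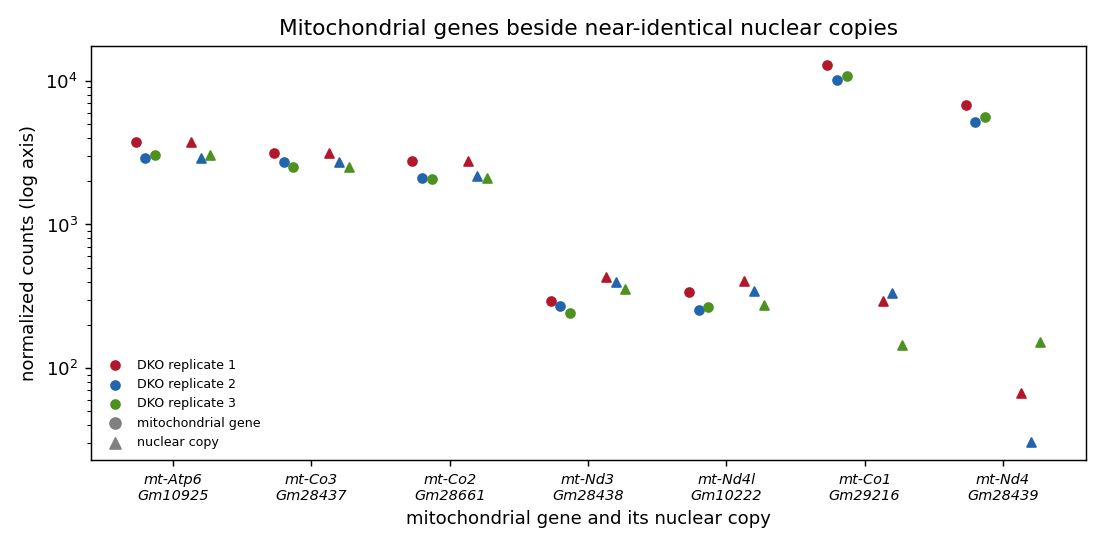
Levels of 7 mitochondrial genes (circles) and of their near-identical copies on chromosome 1 (triangles) in each DKO library, in normalized counts on a log axis. For mt-Atp6, mt-Co3 and mt-Co2 gene and copy lie at the same height, for mt-Nd3 and mt-Nd4l the copy lies above, and for mt-Co1 and mt-Nd4 far below.

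Nuclear subunits had copies too, but with little signal. There were 18 listed for 14 genes, and 4 of them reached a mean of 10. Ndufb4 had 9.99, 9.65 and 8.17 normalized counts, against 24.9, 23.3 and 21.1 for Ndufb4c, identical to it over 390 bases, so this complex I subunit was left below the limit of 10 while its copy was not. Gm10175, identical to Atp5g2 over 645 bases, had 45.3, 43.6 and 36.7, and the sum of the pair was 84.7, 92.4 and 83.9. Ndufs5-ps had 8.20, 13.4 and 11.7, and its sum with Ndufs5 was 23.97, 25.4 and 23.6. The high value of Ndufs5 in replicate 1 was thus not present in the sum. Gm10221, identical to Atp5l over 309 bases, had 11.2, 12.8 and 13.6.

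Genes that act on mitochondrial DNA and RNA are nuclear. Of 15 genes of mitochondrial DNA maintenance and transcription, 9 reached a mean of 10. The highest library was replicate 1 for 2 of the 9, replicate 2 for 5 and replicate 3 for 2 (31.2%, 34.2% and 34.6% of all genes). Tfam, which packages mitochondrial DNA and starts its transcription, was 1 of the first 2, with 49.7, 42.4 and 43.6 normalized counts. Polg, the replicative polymerase, had 45.1, 44.0 and 48.9, and Mgme1, an exonuclease of the replication machinery, 8.68, 12.5 and 11.7.

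Of 17 genes of mitochondrial RNA processing and decay, 16 reached a mean of 10. The highest library was replicate 1 for 8 of the 16, replicate 2 for 2 and replicate 3 for 6 (31.2%, 34.2% and 34.6% of all genes). The median difference of replicate 1 from the other libraries was 0.05 on the log2 scale, beside -0.01 for all genes and 0.37 for the mitochondrial mRNAs. Grsf1, an RNA-binding protein of mitochondrial RNA granules, had 99.9, 102.7 and 99.0 normalized counts, and Lrpprc, which stabilises mitochondrial mRNAs, 57.8, 60.1 and 61.9. Pnpt1, the mitochondrial polynucleotide phosphorylase, had the widest range of this list, with 65.7, 49.8 and 46.8. It was highest in replicate 1, and it is known as an interferon-inducible gene. The part of interferon in its level was not tested.

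Assembly factors, which build the complexes but are not part of them, were expressed at modest levels. Of 14 complex I factors, 7 reached a mean of 10, led by Acad9 at 40.6, 41.9 and 42.7 normalized counts. For complex II it was 3 of 4, led by Sdhaf2 at 35.9, 35.4 and 36.5, and for complex III 4 of 6, led by Uqcc1 at 32.6, 32.4 and 29.3. For complex IV, 16 of 17 were listed and 11 reached a mean of 10. Of these 11, replicate 2 was the highest library for 5 (34.2% of all genes), and replicate 3 the lowest for 7 (34.2% of all genes). The highest was Coa5 at 100.03, 94.0 and 101.9, and the summed level of the 16 was 306, 307 and 307. All 3 complex V factors reached it, led by Tmem70 at 39.2, 38.9 and 39.7.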

How the data were processed

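RNA from 3 DKO libraries of proximal incisor mesenchyme, isolated with a Qiagen micro column kit per the labels, was read from 1 deposited table. The authors' table holds normalized signal per gene, called normalized counts in its name, and their 75th percentile is equal in all 3 columns. Reads were aligned to mm10 with TopHat2 2.0.8, per the submitters' processing notes. The sources used here do not give the counter, the annotation, the strand setting or the treatment of reads with several matches. Of the low values, 82.6%, 82.4% and 82.5% lay within 0.1 of a whole multiple of the smallest value, under the 95% needed to recover reads, so depth is unknown and no count test was run.

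From the deposited values, levels per kb used the union of exons in GENCODE M21, which gave a length for all 97 members, 3 of them matched by position. Differences are log2(value + 1), so those of low genes are understated, and counts of members use a mean of at least 10. Libraries of 1 group allow no test between conditions. Paired isoforms were compared with an exact sign-flip permutation test (numpy 2.4.6). Only the median difference of replicate 1 from the other libraries was checked on simulated data. Copies were sought with blastn 2.17.0 among 1536 listed pseudogenes, 1521 of them with a sequence, at 90% identity or more over at least 100 bases and 80% of the copy. Promoters are from RefSeq, GRCm38.p6, and protein-coding genes were grouped by symbol.

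Named are all mitochondrial genes, per nuclear complex the 3 highest and 2 lowest per kb and the 2 that ranged most between libraries above that limit, members with a mean under 1, isoform pairs, subunit c genes, leading genes of the lists (1 is not reported here), and pseudogenes within 10% of a mitochondrial gene. The members, lists and rules were chosen with earlier results of these data known. The copy search, promoter letters, transcript lengths, the 1.2-fold and 10% variation counts, and other genes singled out were chosen after values were seen. Alternatives changed scaling, length, pseudocount, filter, denominator and libraries.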

Additional observations from a re-analysis of the deposited data

How the results depend on the processing

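The log2 difference of mitochondrial minus nuclear subunits, 6.81 as reported, was 5.92 without division by length, 6.44 with a pseudocount of 10, 6.47 as a mean over genes, 5.45 against nuclear subunits with a mean of at least 100, and 5.93 with principal transcript lengths, which also changed ranks within complexes. It stayed positive under every alternative run, and leaving out single libraries gave 6.67 to 6.90. The mitochondrial share, 4.47%, was 5.14% of the protein-coding total without mitochondrial genes and 5.44% with near-identical copies added, and 4.15% to 4.64% with libraries left out. The nuclear share, 0.516%, was 0.547% without ribosomal RNA and 0.592% of the protein-coding total, and 0.503% to 0.528% with libraries left out. The median excess of mitochondrial mRNAs in replicate 1, 0.37, was 0.33 at equal totals, 0.39 at equal totals over genes that are neither ribosomal nor mitochondrial, 0.38 with median-of-ratios scaling, 0.36 with a pseudocount of 10, 0.41 without genes that have a copy, and 0.358 to 0.362 with libraries left out. For the nuclear subunits, -0.05 as reported, it was -0.09 to -0.03 under the scalings and -0.11 to -0.03 with libraries left out, the first without replicate 3 and the last without replicate 2. Of 77 nuclear subunits, 6 were highest in replicate 1 (31.2% of all genes), and 3 at equal totals (23.7% of all genes). Among the far fewer subunits whose mean reached 100 the count was 0, without a share over all genes at that limit. With libraries left out it was 6 to 34 of the 77, the 34 without replicate 2. No isoform pair changed direction. The causes of these shifts were not tested beyond what each alternative changes by construction. No paired analysis between conditions was possible because the labels give only 1 group. Principal lengths, added copies and removal of genes with copies were chosen after seeing the data. The unknown read depth leaves the counting error of low genes such as Cox7a1 unmeasured.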

Other observations

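Other nuclear genes of the mitochondrion were read from the same libraries. Of 78 genes of the mitochondrial ribosome, which translates the mitochondrially encoded subunits, 72 reached a mean of 10, and the highest library was replicate 1 for 17 of them, replicate 2 for 35 and replicate 3 for 20 (31.2%, 34.2% and 34.6% of all genes). Mrpl50 and Mrpl3, of the large ribosomal subunit, led with 46.3, 47.9 and 42.4 and with 40.3, 44.02 and 40.6 normalized counts in replicates 1, 2 and 3. Mrpl47 had the widest range, with 17.6, 19.5 and 13.4. The summed level of the 78 was 1568, 1613 and 1545.

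The 13 genes of the tricarboxylic acid cycle all reached a mean of 10 and summed to 1184, 1229 and 1275 normalized counts, with 1 gene highest in replicate 1 (31.2% of all genes). Ogdh, of the 2-oxoglutarate dehydrogenase complex, had 141.8, 144.03 and 166.2 and was highest in replicate 3. Of 14 genes of mitochondrial import, chaperones and membranes, 9 were highest in replicate 2 (34.2% of all genes). Hspa9, the mitochondrial Hsp70 chaperone, had 294.6, 301.3 and 293.9, and Hspd1, the mitochondrial chaperonin, 238.5, 278.5 and 253.6.

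Among 6 regulators of mitochondrial biogenesis, 3 reached a mean of 10. Gabpa, the ETS factor named with the promoter letters, had 114.6, 121.9 and 111.1 normalized counts, and Nrf1 had 29.5, 30.1 and 28.9. Ppargc1a, a coactivator best known from brown fat and muscle, had 9.82, 10.03 and 8.41, just under that limit on average.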
